A study of Mus musculus with 8 samples.

Results

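The Foxp forkhead genes Foxp1, Foxp2 and Foxp4 were examined in ATAC-seq peak lists from mouse embryonic stem cell-derived cardiac progenitor cells. ATAC-seq marks open chromatin, because the Tn5 transposase inserts sequencing adapters where DNA is accessible. Members were the peaks whose summit had 1 of these 3 genes as its nearest protein-coding gene within 100 kb. They made up 191 of the 172983 peaks in the 3 lists, of which D5 contributed 31, D7 control 62 and D7 GLI1 98. Foxp3, the paralog of regulatory T cells, had 0 regions in the lists.

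All 8 libraries came from the GLI1-FTA line, with A2Lox.cre as the labelled strain. The D5 control group had 2 libraries from untreated cells at day 5 of differentiation, and the D7 control group had 3 from untreated cells at day 7. The D7 GLI1 group had 3 libraries from cells that overexpressed GLI1, a zinc finger transcription factor that acts downstream of Hedgehog signals, after 500 ng/ml doxycycline for 48 hours. Neither control group received doxycycline, so an effect of the drug and an effect of GLI1 cannot be told apart. Each group is represented by 1 pooled peak list, and the D7 control list was identified by inference, from its pairing with the doxycycline list. Spread between libraries could not be measured, and the intervals below cover counting error only. The 6 cardiac progenitor marker genes examined (Nkx2-5, Isl1, Tbx5, Mef2c, Gata4 and Hand2) had regions in each list, and so did the endoderm genes Foxa2 and Sox17 and the neural genes Sox1 and Pax6. An open region does not show that its gene was expressed.

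Foxp proteins bind DNA through a forkhead domain and form dimers with each other through a leucine zipper, and they act mainly as repressors that recruit co-repressor complexes. Foxp1 is needed for heart development, in outflow tract and valve formation and in the balance between growth and maturation of the muscle. Foxp2 is known from speech and from the neurons of the cortex and striatum, and Foxp4 from the foregut, lung and heart. In mm10 coordinates Foxp1 spans chr6:98925342-99522746 (597 kb), Foxp2 chr6:14901349-15441977 (541 kb) and Foxp4 chr17:47867133-47924632 (57.5 kb).

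The RefSeq promoter table (GRCm38.p6) lists 3 starts for Foxp1 and 1 for Foxp4, all on the minus strand. Foxp2 has no entry. The windows run from 250 bases before the start to 50 after it. They are shown because 3 of the 4 lay in regions open in both D7 lists, and the remaining one lay at a region found with GLI1 and not in control. Capitals mark TGTTTA, the core of the forkhead motif, and CCACCC, the core of the GLI motif, on either strand (TAAACA and GGGTGG on the opposite one).
Foxp1 start 99520993 (chr6:99520944-99521243, minus strand): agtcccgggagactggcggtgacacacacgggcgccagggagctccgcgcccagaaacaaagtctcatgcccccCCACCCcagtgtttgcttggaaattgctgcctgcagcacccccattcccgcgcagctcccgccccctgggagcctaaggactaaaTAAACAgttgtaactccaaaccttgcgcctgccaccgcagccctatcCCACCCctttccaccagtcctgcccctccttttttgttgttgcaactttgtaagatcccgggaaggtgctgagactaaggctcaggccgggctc
Foxp1 start 99266515 (chr6:99266466-99266765, minus strand): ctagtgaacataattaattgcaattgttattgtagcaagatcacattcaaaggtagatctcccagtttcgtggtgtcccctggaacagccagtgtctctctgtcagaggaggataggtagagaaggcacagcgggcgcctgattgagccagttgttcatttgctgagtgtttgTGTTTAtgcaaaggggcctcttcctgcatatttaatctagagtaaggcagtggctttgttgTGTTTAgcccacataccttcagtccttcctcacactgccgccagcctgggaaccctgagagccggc
Foxp1 start 99028298 (chr6:99028249-99028548, minus strand): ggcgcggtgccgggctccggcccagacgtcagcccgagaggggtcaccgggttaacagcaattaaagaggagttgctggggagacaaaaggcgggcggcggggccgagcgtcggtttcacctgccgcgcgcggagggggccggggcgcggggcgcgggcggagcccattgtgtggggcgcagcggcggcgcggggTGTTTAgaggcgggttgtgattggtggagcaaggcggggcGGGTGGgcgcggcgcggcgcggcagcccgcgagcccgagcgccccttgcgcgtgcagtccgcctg
Foxp4 start 47924632 (chr17:47924583-47924882, minus strand): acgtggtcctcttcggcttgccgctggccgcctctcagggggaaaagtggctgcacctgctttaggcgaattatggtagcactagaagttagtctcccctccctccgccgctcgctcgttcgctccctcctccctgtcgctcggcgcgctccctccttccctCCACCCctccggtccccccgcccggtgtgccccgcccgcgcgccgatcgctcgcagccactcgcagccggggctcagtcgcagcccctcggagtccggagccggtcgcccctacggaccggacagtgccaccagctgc

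TGTTTA occurred in each of the 3 Foxp1 windows, with 2 matches at the start at 99266515 and 1 at each of the others. It did not occur in the Foxp4 window. Of 32851 promoter windows in the table, 13.4% held it on either strand. The longer TGTTTAC, which contains TGTTTA and was in 3.65% of windows, and TATTTAT, in 5.60%, had no match in these 4. CCACCC was found in 3 of the 4 windows and in 31.5% of all. The full GLI sequence GACCACCCA was in 0.253% of all windows and in none of these. GC content was 60.3%, 48.7% and 75.3% in the Foxp1 windows, in the order printed, and 70.3% for Foxp4, against a median of 52.7% over all windows. These matches describe letters, and binding was not measured.

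Region counts differed between the members. Peaks that overlapped within a list were joined into regions, and 1 base in common was enough for regions of different lists to count as shared. Foxp1 had 12 regions in the D5 list, 17 in D7 control and 31 with GLI1. Foxp2 had 5, 7 and 13, and Foxp4 had 9, 14 and 16. With GLI1 the Foxp1 regions covered 19864 bases against 13320 in D7 control, and the Foxp2 regions 9006 against 5364, while the Foxp4 regions covered 13119 against 12209. In the D7 lists each fold went with 1 p-value, as with a constant background, whereas in the D5 list a fold could go with several. D5 folds are therefore not set against D7 folds.

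Regions of the GLI1 list with no D7 control region are called gained, and D7 control regions with no GLI1 region are called lost. Over the genome 39% of GLI1 regions were gained and 31.6% of control regions were lost. These and the other shares of a whole list given below have no distance limit. Over the regions assigned to the 15375 genes with a D7 region, 36.8% were gained and 29.2% lost. For Foxp1 the gained share was 61.3% (19 of 31; Wilson 95% interval 43.8 to 76.3), and for Foxp2 it was 84.6% (11 of 13; 57.8 to 95.7). Foxp4 had 18.8% gained (3 of 16; 6.59 to 43.0). The intervals of Foxp1 and Foxp2 lay above the share of the whole list, and that of Foxp4 included it. With regions assigned to the nearest gene start instead, 58.3% were gained at Foxp1 (14 of 24; 38.8 to 75.5), 80% at Foxp2 (4 of 5; 37.6 to 96.4) and 9.09% at Foxp4 (1 of 11; 1.62 to 37.7). The intervals of Foxp1 and Foxp2 then included the share of the whole list and that of Foxp4 lay below it, all by narrow margins and from fewer regions. Set against 36.8%, a share by gene interval, those of Foxp1 and Foxp2 lay above and that of Foxp4 included it. Foxp2, which has no listed start, was given both its gene ends. The lost share was 29.4% at Foxp1 (5 of 17; 13.3 to 53.1), 57.1% at Foxp2 (4 of 7; 25.05 to 84.2) and 7.14% at Foxp4 (1 of 14; 1.27 to 31.5). The intervals of Foxp1 and Foxp2 included the share of the whole list. That of Foxp4 ended just under it, which rests on 1 region. It included the 29.2% of assigned regions, and with lists of equal length it also included the share of the whole list (3 of 14; 7.57 to 47.6, against 33.6% of all).

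Genes of at least 500 kb, pooled, had higher gained and lost shares than all 15375 genes with a D7 region (36.8% and 29.2%). The 222 genes of at least 500 kb with D7 regions, Foxp1 and Foxp2 among them, together had 56.1% of their GLI1 regions gained and 47.4% of their control regions lost. The interval of the gained share of Foxp1 included that of these long genes, and the interval of Foxp2 began just above it. For lost regions the intervals of both genes included it. By gained minus lost count, 2 of the 15375 genes with a D7 region had a higher net than Foxp1, 25 a higher net than Foxp2, and 802 a higher net than Foxp4. Among the long genes 2 exceeded Foxp1 and 9 exceeded Foxp2. The part of length in these counts was not tested.

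Markers of other cell types also differed in their number of regions between the D7 lists. Foxa2 had 2 regions in control and 13 with GLI1, Sox17 had 2 and 6, Pax6 4 and 7 and Sox1 8 and 9. The highest fold with GLI1 was 20.4 against 8.46 in control at Foxa2, 12.8 against 23.2 at Pax6 and 12.8 against 18.4 at Sox1. At Sox17 it was 8.60 against 8.28. Of the 6 cardiac progenitor genes, Mef2c had 7 and 11 regions, Nkx2-5 and Tbx5 each had 2 and 1, and the other 3 had equal numbers. Their highest fold with GLI1 was 45.8 against 31.0 in control at Mef2c, 40.4 against 28.1 at Isl1 and 13.3 against 9.36 at Gata4. It was 11.1 against 7.92 at Hand2, 6.14 against 3.24 at Nkx2-5 and 4.74 against 5.22 at Tbx5. The part of a shift in cell types in the Foxp counts was not tested.

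**Figure D1:**
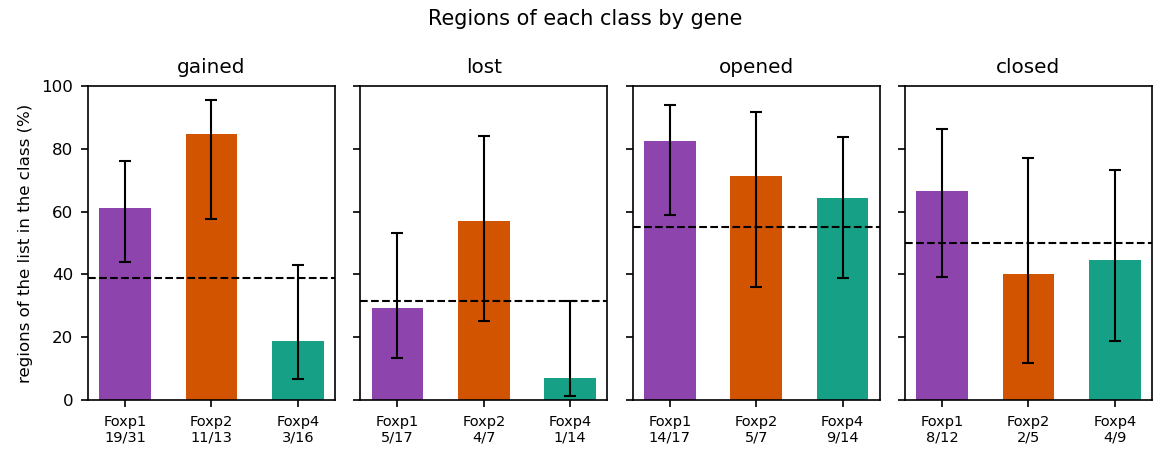
Percent of regions in each class for Foxp1, Foxp2 and Foxp4: gained (of GLI1 regions), lost (of D7 control regions), opened (of D7 control regions) and closed (of D5 regions). Bars give the share with its Wilson 95% interval, the fractions give called over all regions, and the dashed line is the share over the whole list; gained regions made up 84.6% at Foxp2 and 18.8% at Foxp4.

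The reads over each summit could be worked out for the D7 lists, because each fold there equals reads plus 1 divided by the background plus 1. The background was 4.56 reads per base in control and 4.70 with GLI1. The lowest summit called had 13 reads in either list. Most gained regions at these genes were weak: their median was 25 reads at Foxp1, 21 at Foxp2 and 26 at Foxp4, against 21 over all gained regions. A fold at least 2 times the lowest one called in the opposite D7 list was reached by 11 of the 33 gained and 4 of the 10 lost regions, where 23.2% of all gained and 24.5% of all lost regions reached it.

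Along Foxp1 the gained regions were spread much as all its D7 regions were. The segment between the second and the third listed starts, 238 kb long, had 15 GLI1 regions, of which 8 were gained, and 9 control regions, of which 3 were lost. The 103 kb from the third listed start to the gene end had 6 GLI1 regions with 4 gained, and 3 control regions with 1 lost. The longer stretch of 254 kb between the first and the second starts had the same numbers. Past the gene end both GLI1 regions were gained, and before the first start 1 of 2.

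The strongest gained Foxp1 region was chr6:99133021-99134063, 1043 bp wide, with a fold of 12.8 (72 reads). Next came chr6:99173136-99174106 with 11.4 (64 reads), also inside the gene. The third, chr6:98919546-98920256, lay 5.46 kb past the gene end with a fold of 9.48 (53 reads). None of these 3 overlapped a D5 region. A further gained region at chr6:98872235-98872755, with a fold of 8.25, did overlap one.

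The lost Foxp1 region of highest fold was chr6:99065223-99066272, 1050 bp wide, with 11.9 (65 reads) in control and no region with GLI1. It was followed by chr6:99099799-99100184 with 6.66 (36 reads) and chr6:99485207-99485522 with 6.12 (33 reads). Another lost region, chr6:99066327-99066528, lay close beside the one of highest fold and was counted apart from it. All 5 lost Foxp1 regions lay inside the gene and were absent at D5.

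**Figure D2:**
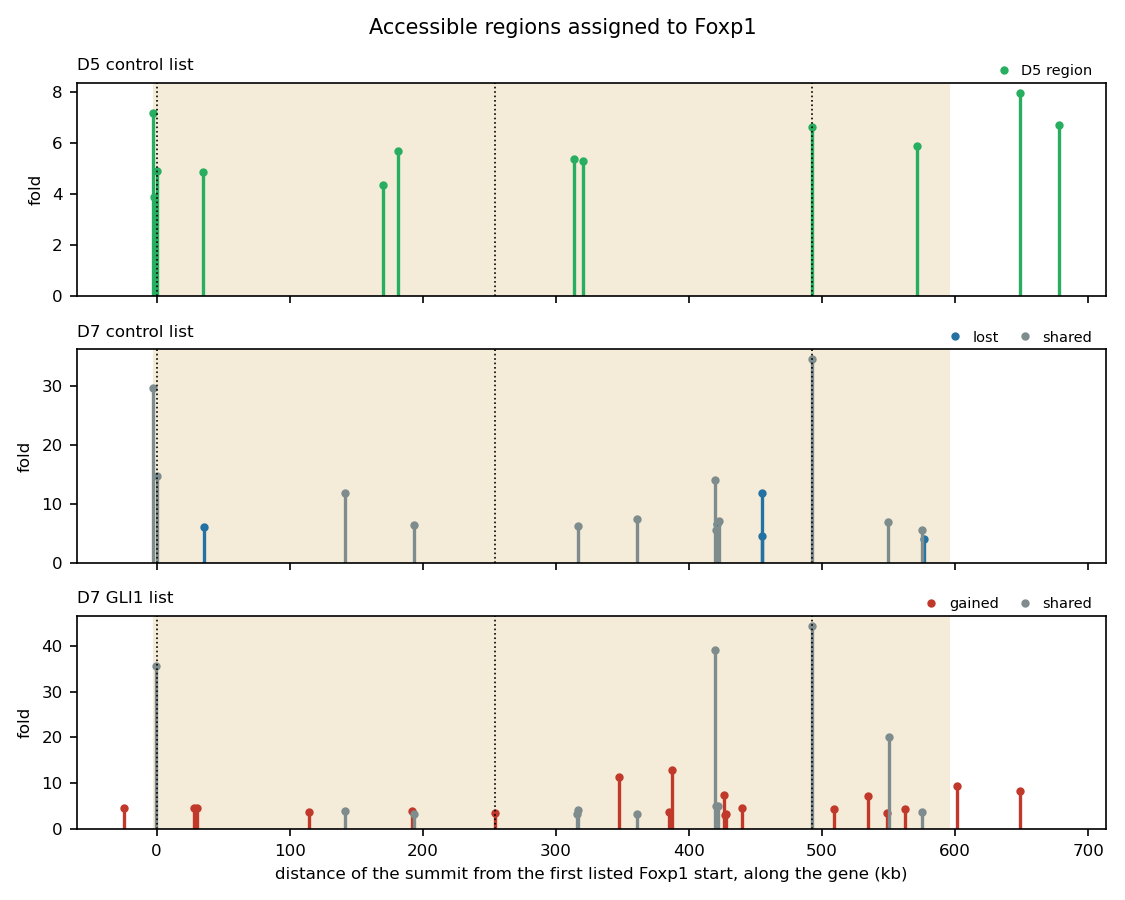
Regions assigned to Foxp1 in the D5 control, D7 control and D7 GLI1 lists. The x axis is the distance of the summit from the first listed start along the gene in kb, the y axis the authors' fold in that list (scales differ), the shaded span the gene and the dotted lines its 3 listed starts; 15 of the 31 GLI1 regions and 9 of the 17 control regions lie between the second and the third starts, and the shared regions 419 and 550 kb from the first start are higher with GLI1.

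Loci in both D7 lists were compared by their highest fold in each. Over the genome 24942 loci were shared, and 13.6% had a fold with GLI1 at least 1.5 times that of control and 13.7% at most 1/1.5 of it. The median log2 ratio was 0.09. Of 25 shared loci at the 3 genes, 5 (20%) were past this ratio upwards and 6 (24%) downwards, with a median log2 ratio of -0.16. Foxp1 had 2 upwards and 4 downwards of 11, Foxp2 1 and 0 of 2, and Foxp4 2 and 2 of 12.

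The loci with the largest ratios upwards were both in Foxp1. At chr6:99101139-99102191 the fold was 39.1 with GLI1 against 14.0 in control, from 222 against 77 reads. Scaled by the backgrounds, the reads were 2.80 times higher (exact 95% interval 2.15 to 3.67). At chr6:98970469-98971339 the fold was 20.2 against 6.84, from 114 against 37 reads, or 2.99 times (2.05 to 4.46). Both intervals lay above 1.5, and neither locus was in the D5 list. The loci with the largest and the lowest ratios were picked by those ratios, and their intervals are not adjusted for that choice.

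The first of these loci lies inside Gm19665, a noncoding transcript annotated within Foxp1 at chr6:99097669-99108316. Its neighbours in the same transcript did not share its direction. The locus at chr6:99098565-99099455 had 5.09 with GLI1 against 7.02 in control, and that at chr6:99100300-99100909 had 5.09 against 5.58, each with a read ratio whose interval included 1 (0.422 to 1.20 and 0.521 to 1.57). The lost region chr6:99099799-99100184 lies between them.

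Lower folds with GLI1 were found at other internal Foxp1 loci. The lowest ratio was at chr6:99378997-99379576, with 3.86 against 11.9 (21 against 65 reads; read ratio 0.313, 0.182 to 0.519). At chr6:99159871-99160430 the fold was 3.34 against 7.38 (18 against 40 reads; 0.436, 0.236 to 0.779). At chr6:99327565-99328057 it was 3.34 against 6.48 (18 against 35 reads; 0.499, 0.266 to 0.905). The fourth, chr6:98945576-98946048, had 3.69 against 5.58, and its read ratio interval, 0.348 to 1.18, included 1.

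**Figure D3:**
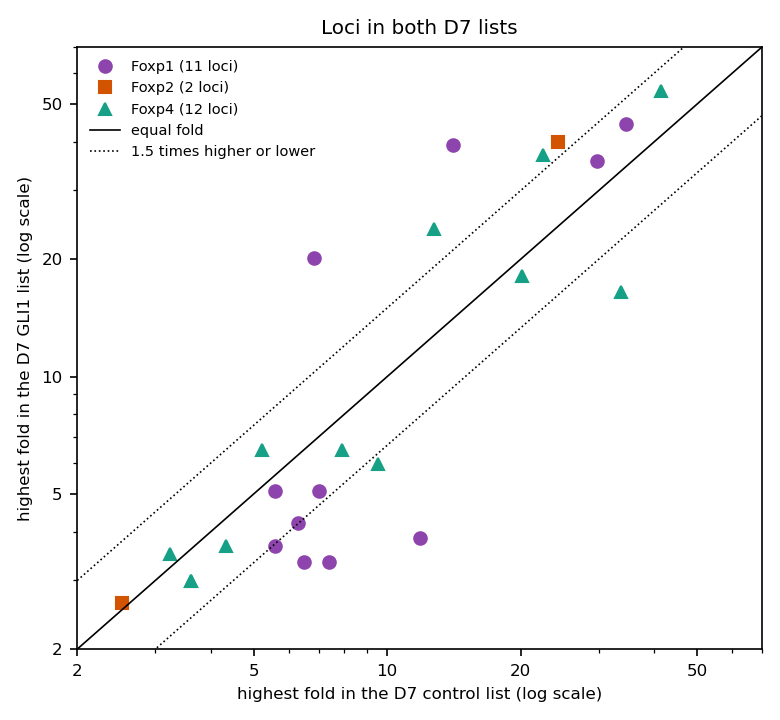
Highest fold of each locus found in both D7 lists, control on the x axis and GLI1 on the y axis, both logarithmic, for 11 Foxp1, 2 Foxp2 and 12 Foxp4 loci. The solid line is an equal fold and the dotted lines a ratio of 1.5 either way; 2 Foxp1 loci stand highest above the line at 20.2 and 39.1 with GLI1, and 2 Foxp4 loci share the point at 3.60 and 2.98.

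The starts of Foxp1 were open at D7, in different degrees. The third listed start (99028298), whose window is the GC-rich one printed above, had the highest fold of the 3 in both lists, 34.6 in control and 44.4 with GLI1 (191 and 252 reads; read ratio 1.28, 1.06 to 1.55). The second (99266515) had a region with GLI1 alone, chr6:99266350-99266615, with a fold of 3.51 from 19 reads. It covered 150 of the 300 bases of the printed window, and 13 reads was the lowest count called in control.

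At the first listed start (99520993) the summits within the broad region differed in their ratio. The summit nearest the start, 76 bases before it with GLI1 and 52 in control, had 202 reads against 81 and folds of 35.6 against 14.8. The read ratio was 2.42 (1.86 to 3.17). The summit about 2.4 kb upstream had 137 reads against 164 and folds of 24.2 against 29.7, with a ratio of 0.810 (0.641 to 1.02). This interval included 1, and the control summit lay 0.716 kb outside the gene interval. The highest summit of this stretch was therefore the upstream one in control and the one at the start with GLI1. Taken as 1 locus of 3825 bp the stretch had a ratio of 1.20 in fold, which does not show this. In D5 regions were found at both places, with folds of 4.92 at the start and 7.19 upstream. These summits, and those at the Foxp2 end and the Foxp4 start below, were paired, within 100 bases, after their values were seen.

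At Foxp2 the open chromatin was concentrated at the lower-coordinate end of the gene. There the GLI1 list had a region of 4830 bp with 10 summits, chr6:14897847-14902676. In D7 control the same span had 2 regions, of 1255 and 2909 bp. The highest summit, 2.9 kb outside the gene, had 227 reads against 134 and folds of 40.0 against 24.3, with a read ratio of 1.64 (1.32 to 2.05). Close to the gene end, 104 reads were found against 74, a ratio of 1.36 (1.002 to 1.86). Inside the gene at 0.499 kb a GLI1 summit had 64 reads and no control summit within 100 bases. That position lies within the D7 control region of 2909 bp, so it was called open in both lists. The D5 list had 2 regions here, with folds of 3.80 and 5.97, and none at the 2.9 kb summit.

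**Figure D4:**
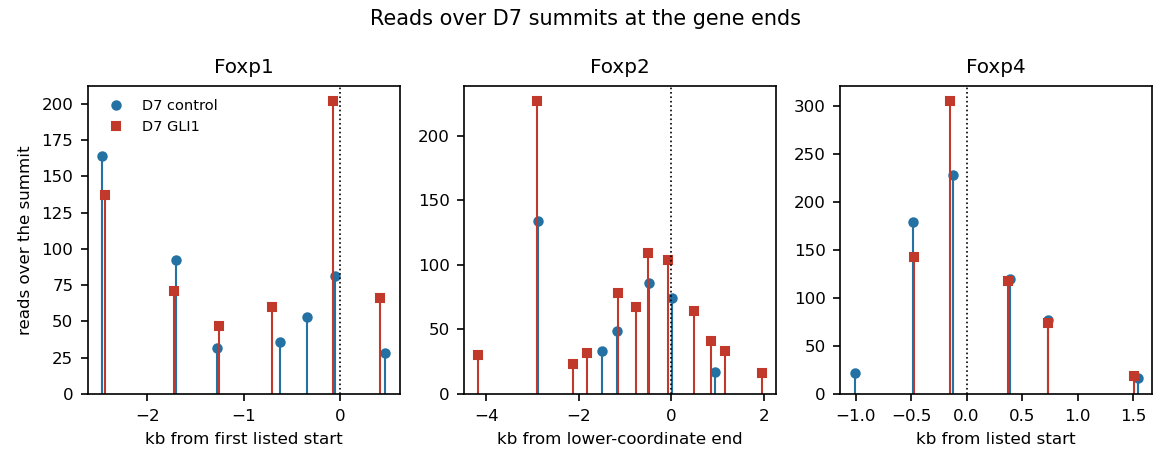
Reads over each D7 summit around the first listed Foxp1 start, the lower-coordinate end of Foxp2 and the listed Foxp4 start, against distance in kb (negative values lie outside the gene or before the start). Blue circles are D7 control and red squares D7 GLI1; at the Foxp1 start GLI1 has 202 reads and control 81, while 2.4 kb before it GLI1 has 137 and control 164.

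Inside Foxp2 few regions of the 2 D7 lists overlapped. The gained regions of the gene had 16 to 30 reads and the lost ones 20 to 35, where the lowest summit called had 13. The gained interval of Foxp2 began at 57.8, where long genes had 56.1%. Its lost interval (25.05 to 84.2) included the shares of the whole list (31.6%) and of long genes (47.4%). No share over all regions inside genes is given here. Of 11 gained regions 10 were inside the gene, and the 4 lost ones were as well, whereas 1 shared locus lay deep within it, at chr6:15257522-15257949, with folds of 2.63 and 2.52 near the detection limit. The gained region of highest fold was chr6:14897074-14897286 outside the gene, with 5.44 (30 reads). It was followed by chr6:15185077-15185483 with 5.27 (29 reads) and by chr6:15229418-15230134 and chr6:15299613-15300252, each with 5.09 (28 reads). The gained folds ran from 2.98 to 5.44, with 16 to 30 reads, below the highest gained folds of the other 2 genes. The lost region of highest fold, chr6:15063271-15063576 with 6.48 (35 reads), overlapped a D5 region. The other lost regions had folds of 3.78 to 4.50 and were absent at D5. The strongest D5 region, chr6:15016546-15016736 with a fold of 11.5, was in neither D7 list.

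Most D7 regions of Foxp4 were in both lists, and so were most regions of the whole lists, where 39% were gained and 31.6% lost. The gained interval of Foxp4 (6.59 to 43.0) included the share of the whole list. The Foxp4 start had the highest folds of any member, 41.4 in control and 53.9 with GLI1 (229 and 306 reads; read ratio 1.30, 1.09 to 1.54). As at Foxp1, the summits were not uniform: the one 0.48 kb before the start had 143 reads with GLI1 against 179, a ratio of 0.775 (0.617 to 0.971).

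Away from the start, Foxp4 had loci higher and lower with GLI1. At chr17:47973693-47975702, about 50.8 kb before the start and inside the long noncoding RNA gene Gm29938, the fold was 23.9 against 12.8 (135 against 70 reads; 1.87, 1.39 to 2.53). At chr17:47886669-47888833, 37.1 kb into the gene, it was 37.0 against 22.5 (210 against 124 reads; 1.64, 1.31 to 2.07). The next locus towards the start, chr17:47897930-47899510, 26.0 kb into the gene, had 16.5 against 33.7 (93 against 186 reads; 0.485, 0.374 to 0.625), the lowest ratio at Foxp4. The locus 22.5 kb before the start, chr17:47946692-47947431, had 5.97 against 9.54 (33 against 52 reads; 0.615, 0.385 to 0.970).

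The 3 gained Foxp4 regions had folds of 7.72, 4.74 and 4.04. The strongest, chr17:47863425-47863800, lay 3.53 kb past the gene end (43 reads). The second, chr17:47954988-47955649, lay in Gm29938 and overlapped a D5 region. The third, chr17:47879213-47879422 (22 reads), lay close to the single lost region, chr17:47878905-47879104. That lost region had a fold of 3.24 from 17 reads.

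**Figure D5:**
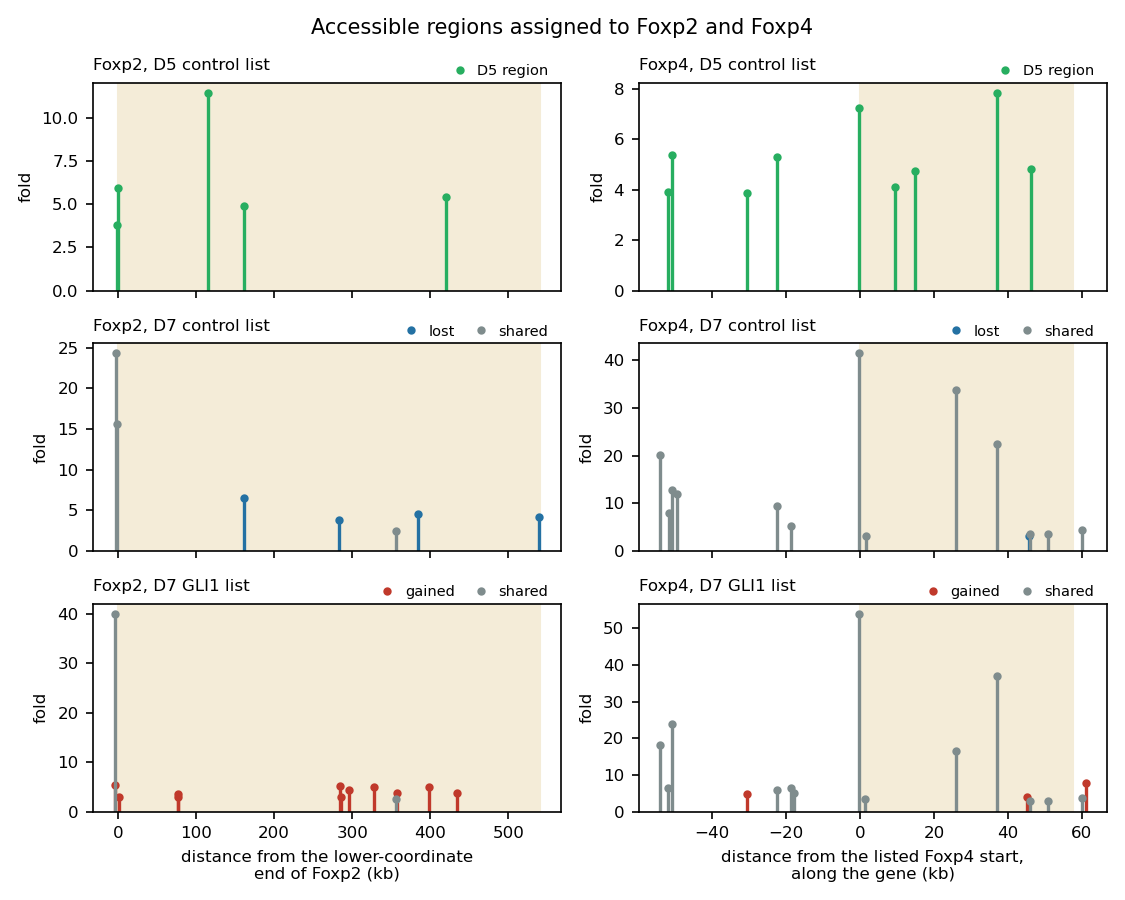
Regions assigned to Foxp2 (left, distance from its lower-coordinate end in kb) and Foxp4 (right, distance from its listed start along the gene in kb) in the 3 lists, with the authors' fold on the y axis (scales differ) and the gene shaded. At Foxp2 one tall shared region stands at the gene end at 40.0 with GLI1 and the gained regions inside the gene stay at or below 5.27; at Foxp4 the tall regions are shared.

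Between D5 and D7 control, regions of D7 control absent at D5 are called opened, and D5 regions absent in D7 control closed. Over the genome 55% were opened and 50% closed. Foxp1 had 82.4% of its D7 control regions opened (14 of 17; 59.0 to 93.8), Foxp2 71.4% (5 of 7; 35.9 to 91.8) and Foxp4 64.3% (9 of 14; 38.8 to 83.7). The interval of Foxp1 lay above the share of the whole list, and the others included it. By nearest gene start that of Foxp1 included it as well (12 of 15; 54.8 to 93.0). The closed shares were 66.7% (8 of 12), 40% (2 of 5) and 44.4% (4 of 9), all with intervals that included the share of the whole list. At Foxp1 the 4 D5 regions that stayed were those at the first and the third listed starts and just upstream of the first, so the D5 regions inside the gene away from these were among the closed. The D5 and D7 lists differ in how the background was set, so an effect of time cannot be told apart from an effect of calling.

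Few gained or lost regions overlapped a D5 region, at the 3 genes as over the whole lists. D5 regions were narrower, with a median width of 238 bp against 480 bp in D7 control and 441 bp with GLI1. The part of width in the overlap was not tested. Of the 33 gained regions, 2 overlapped a D5 region (6.06%; 1.68 to 19.6), where 13.5% of all gained regions did. Of the 10 lost regions 1 did (10%; 1.79 to 40.4), against 8.95% of all lost regions. Both intervals included the share of the whole list. Of the 28 regions opened at the 3 genes between D5 and D7 control, 9 were absent with GLI1 (32.1%; 17.9 to 50.7). Over all opened regions the share was 52.4%, which lay above this interval. By gene, 5 of 14 were absent at Foxp1 (35.7%; 16.3 to 61.2), 3 of 5 at Foxp2 (23.1 to 88.2) and 1 of 9 at Foxp4 (1.99 to 43.5). The intervals of Foxp1 and Foxp2 included 52.4%, and that of Foxp4 lay below it. The gained and lost classes and the opened and closed classes share the D7 control list.

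The members were also described by the share of their regions in each of the 7 combinations of lists. Of 42 Foxp1 regions in the union of the 3 lists, 18 were in the GLI1 list alone (42.9%), 9 in both D7 lists and 2 in all 3. Of 19 Foxp2 regions 11 were in the GLI1 list alone (57.9%) and 1 in all 3, and of 18 Foxp4 regions 2 and 6. Over all genes the GLI1 list alone held 20.2% and all 3 lists 25.5%. Among 1334 genes with at least 10 regions, the pattern nearest to Foxp1 was that of Tgfbr3, which encodes the TGF-beta co-receptor betaglycan, at a Euclidean distance of 6.71 percentage points (median of all genes 35.3). Spock1 and Adgrl2 followed at 7.60 and 8.07. Adk, Osbpl3 and Zdhhc14 were nearest to Foxp2, at 8.72 to 11.4, and Ssbp3, Adgrb1 and Atp2b2 to Foxp4, at 8.78 to 12.0.

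The other forkhead genes, 41 in number, had 77 of 163 GLI1 regions gained (47.2%) and 36 of 130 control regions lost (27.7%). Gained regions outnumbered lost ones in 20 of the genes and lost ones gained in 7, with a median net of 0, and over all 15375 genes 5273 had more and 3139 fewer, also with a median of 0. Foxa2, of endoderm and floor plate, had 11 gained and 0 lost, and Foxd2 7 and 0, while Foxc1 had 1 and 4. Genes of known Foxp partners, the CtBP and NuRD co-repressors and the Satb and Sox factors, had 24 of 67 gained (35.8%) and 18 of 65 lost (27.7%). Of these 20 genes 8 had more gained regions and 4 fewer, with Sox5 at 12 and 8 and Gatad2b, a NuRD subunit, at 0 and 2. Cardiac transcription factor genes had 12 of 32 gained and 13 of 34 lost, and 2 of these 9 genes had more gained regions and 4 fewer, with Mef2c at 4 and 0 and Hand1 at 0 and 3. Genes reported as Foxp targets in neurons had 45 of 78 gained (57.7%) and 36 of 68 lost (52.9%), and 6 of 9 had more gained regions and 1 fewer. Robo1, an axon guidance receptor, had 14 and 8, and Disc1 3 and 10. Over all 15375 genes, 14446 of 39272 GLI1 regions were gained (36.8%) and 10344 of 35418 control regions lost (29.2%). For the genes of at least 500 kb these shares were 56.1% and 47.4%. The part of gene length in the shares of these lists was not tested.

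The distance limit of 100 kb fell in a sparse stretch. The farthest member was a D5 region 82.2 kb from Foxp1 with a fold of 6.69. The nearest regions outside were a D5 region 120 kb from Foxp2, with 11.3, and a GLI1 region 128 kb past the end of Foxp1, chr6:98797221-98798480, with 18.8. Another GLI1 region, chr6:98690208-98691503, lay 234 kb from Foxp1 with 16.5. These last 2 had no D7 control region, and their folds exceeded those of the 19 gained Foxp1 regions within the limit.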

How the data were processed

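ATAC-seq libraries of D5 control, D7 control and D7 GLI1 cells were represented by 3 peak lists, 1 for each group. Per the submitters' processing notes, the tools were MACS2 2.1.1, Bowtie2 2.3.2, Picard and SAMtools 1.5, with build mm10. The list named as control was taken as D7 control, an inference from its pairing with the doxycycline list. The deposited lists give each peak a fold enrichment (a ratio over the background), a −log10 p and a −log10 q, a score that is the whole part of 10 times the −log10 q, and the offset of the summit. In the D7 lists the deposited −log10 p equals the Poisson tail of the reads worked out from the fold (largest deviation 0.00017 over the peaks whose p could be computed), so those reads are whole numbers. Overlapping peaks were merged with Python 3.11.15 and pandas 2.3.3, checked on simulated lists, and assigned by summit to the nearest of 21883 RefSeq gene intervals (GRCm38.p6). The annotation used here gives no exons, so exon, intron and UTR status is not stated. Named regions were Foxp regions at gene starts, the 3 gained and 3 lost of highest fold per gene, and the 3 shared loci of largest ratio either way. Members and gene lists were chosen with earlier results of these data known. Alternatives changed the assignment, the distance limit, the −log10 q minimum, the list lengths, the overlap and the fold ratio. In the assignment by nearest gene start, genes with no listed start, Foxp2 among them, were given both gene ends. Regions over 100 kb from these positions were not counted, also when they lay inside a gene. No p-value between conditions was computed.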

Additional observations from a re-analysis of the deposited data

How the results depend on the processing

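No paired analysis was possible because the libraries of a group were pooled into 1 peak list, which also kept any library from being left out. Counting only strong gained and lost regions (fold at least 2 times the lowest one called in the opposite D7 list), a rule chosen after seeing the data, the gained share of the 3 genes together was 28.9% (11 of 38) against 55% (33 of 60), and the lost share 12.5% (4 of 32) against 26.3% (10 of 38), which follows from dropping weak regions. Under the same rule the shares of the whole list were 12.9% gained and 10.2% lost. The gained interval lay above that share at Foxp1 (6 of 18) and Foxp2 (4 of 6) and included it at Foxp4 (1 of 14). The other gained, lost, opened and closed shares of the 3 genes together stayed within the counting intervals of the reported values. So did 71 of the 78 shares of single genes. The lost share of Foxp4 also had an interval that included the share of the whole list within 25 kb (1 of 10), at a −log10 q of at least 5 (0 of 10) and among strong regions (0 of 13). That of Foxp2 lay above it at a −log10 q of at least 5 (4 of 6), under the stricter overlap and with lists of equal length (5 of 7 in both). The cause was not tested. The D5 share of lost regions was 0% by nearest gene start (0 of 6) and at a −log10 q of at least 5 (0 of 11), and that of gained regions 0% within 25 kb (0 of 31). At a fold ratio of 2, 2 shared loci were higher and 3 lower. With the authors' GLI1 peaks in place of regions 33 of 59 were lower and the median log2 ratio was -0.68, because minor summits are then set against the highest control summit. By nearest gene start the median turned to 0.12; the cause was not tested. The net of gained over lost regions at Foxp1 ran from 3 (strong regions) to 17 (within 250 kb), at Foxp2 from 3 to 7 and at Foxp4 from 0 (equal list lengths) to 3. The depth of the D5 list could not be worked out.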
